A study of Homo sapiens with 6 samples.

Results

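The TRAIL and FAS death receptor genes were described here in PA1, a long-established human cell line from an ovarian teratocarcinoma, with and without depletion of the transcription factor SOX2. The set was a list of 10 genes out of 59653 gene symbols: the TRAIL ligand TNFSF10, its receptors TNFRSF10A, TNFRSF10B, TNFRSF10C, TNFRSF10D and TNFRSF11B, the FAS receptor gene FAS, and the signalling genes FADD, CASP8 and CFLAR. All 10 had a row in the count table, and 8 of them passed the filter on low counts and were tested. Wild-type PA1 cells in adherent culture received a negative control siRNA or siRNA against SOX2. The labels mention a pair of SOX2 siRNAs without saying whether they were mixed. After 24 h the cells were moved to poly-HEMA plates, to which cells cannot attach, and RNA was collected after another 72 h of growth in suspension. Each group had 3 mRNA libraries, called control and knockdown libraries below. The labels do not say whether the libraries of a group came from separate cultures, so p-values measure only the spread between these libraries.

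TRAIL and FAS ligand are secreted or membrane-bound proteins that trigger apoptosis in cells carrying death receptors. Ligand binding gathers the receptors, their intracellular death domains recruit the adaptor FADD, and FADD recruits the initiator caspase encoded by CASP8. CFLAR encodes c-FLIP, a caspase-8 relative without protease activity that competes in this complex. Of the TRAIL receptors, TNFRSF10A (DR4) and TNFRSF10B (DR5) carry a working death domain. TNFRSF10C (DcR1) lacks one, TNFRSF10D (DcR2) has a truncated one, and TNFRSF11B encodes osteoprotegerin, a secreted protein that also binds the bone cytokine RANKL. These last are called decoys because they bind TRAIL without passing on the death signal. Pluripotent cells are known for apoptosis that is easily set off, and loss of anchorage is itself a trigger of cell death in many epithelial cells.

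Libraries held 25152313 to 32753184 counts, and 3 counts, the amount taken as the floor of detection, equalled 0.0909 to 0.120 CPM (read counts scaled to library size with TMM factors). This floor covers counting error only. SOX2 itself fell from 255 ± 10.1 to 52.5 ± 2.21 CPM (SD, n = 3), a log2 fold change of -2.28 (SE 0.0437; quasi-likelihood test of edgeR with Benjamini-Hochberg adjustment, adjusted p = 5.97e-16). Replicate pairs differed by more than counting noise, with chi-square per degree of freedom of 2.86 to 6.33. Of 7 pluripotency markers 2 were called higher and 1, SOX2 itself, lower; POU5F1 was at 301 CPM and LIN28A at 706 CPM in control libraries, whereas TDGF1 had 0 to 3 counts in each library. Leukocyte markers summed to 0.359 to 0.636 CPM in control and 0.861 to 0.937 CPM in knockdown libraries, with PTPRC at 0 to 3 counts and CD14 rising. In bulk RNA, a change in the number of expressing cells and a change in RNA per cell cannot be told apart.

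Of all 17592 genes tested, 28.2% were called (adjusted p under 0.05), 14.8% as higher and 13.4% as lower after SOX2 siRNA. Of the 8 tested death receptor genes, 2 rose and none fell (edgeR; none was lower at an unadjusted p under 0.05, and DESeq2 and limma also called none lower), and the 2 were both decoys: TNFRSF11B and TNFRSF10D. The share of 2 in 8 is close to the background. The other 6 missed the threshold: the receptors TNFRSF10B, TNFRSF10C and FAS and the signalling genes FADD, CASP8 and CFLAR, with log2 fold changes between -0.048 and 0.042. Control and knockdown values were fully separate for 2 of the 8, against 41.8% of all tested genes. The median log2 fold change was 0.0087 over the 8 genes and -0.00085 over all tested genes. These genes were chosen with results of these data in view, so the counts describe the set and are no test of it.

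**Figure D1:**
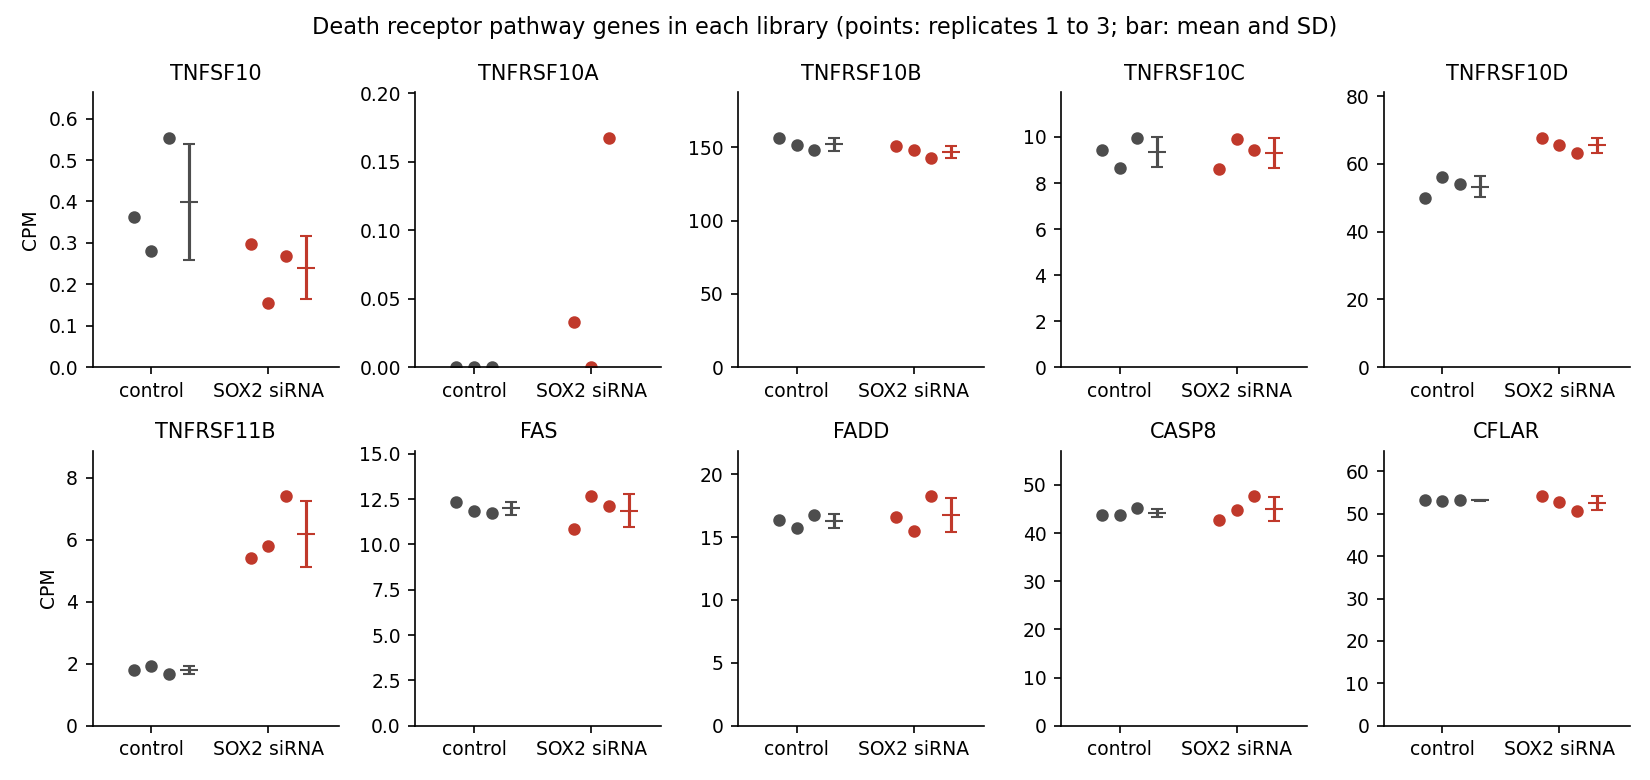
CPM of each of the 10 genes (vertical axis, from 0, a separate scale per panel) in 3 control libraries (grey) and 3 knockdown libraries (red), with the mean and SD beside the points (not drawn for TNFRSF10A). The groups part for TNFRSF10D and TNFRSF11B, and overlap for the other genes.

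The ligand was described first. TNFSF10, encoding TRAIL, had 12, 7 and 16 counts in the control replicates in order and 9, 5 and 8 counts in the knockdown replicates, also in order. The groups overlapped, all libraries were above the floor of 3 counts, and the gene did not pass the filter, so it has no test in the fit across all genes. In CPM these were 0.364, 0.279 and 0.553 against 0.298, 0.155 and 0.268. When the filter was relaxed to 1 count, the log2 fold change was -0.73 (edgeR, Benjamini-Hochberg adjusted p = 0.368). TNFSF10 lies on chromosome 3 of GRCh38 (chr3:172505508-172523507, minus strand, GENCODE 29). FADD, which lies on chromosome 11 (chr11:70203163-70207390, plus strand), was expressed at a much higher level per length in all libraries. RefSeq (GRCh38.p14) gives 250 bases before its start of each gene. GENCODE places the gene start farther out, so that 77 of these bases lie inside the annotated TNFSF10 gene and 133 inside FADD, and the bases outside the gene are shown 5′ to 3′. The pair was chosen as the lowest and the highest per kilobase of annotated exon among the genes with a promoter sequence at hand; by the longest or the median coding transcript FADD is not the highest. Capitals mark CG dinucleotides, the sites of DNA methylation.
TNFSF10 (chr3:172523508-172523680, minus strand): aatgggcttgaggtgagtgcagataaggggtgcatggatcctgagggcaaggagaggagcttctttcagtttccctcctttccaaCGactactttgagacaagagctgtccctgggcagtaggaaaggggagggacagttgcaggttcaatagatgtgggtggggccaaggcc
FADD (chr11:70203046-70203162, plus strand): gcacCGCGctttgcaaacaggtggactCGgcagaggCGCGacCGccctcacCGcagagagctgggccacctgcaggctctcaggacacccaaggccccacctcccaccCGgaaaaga
The TNFSF10 sequence shown holds 1 CG dinucleotide in 173 bases, and that of FADD 8 in 117 bases. The full 250 bases before the RefSeq start of TNFSF10 hold 2 at a GC content of 49.6%, and 14.7% of the 35116 promoter entries in RefSeq hold fewer. Those of FADD hold 32 at a GC content of 68.8%, and 90.5% of the entries hold fewer. Methylation was not measured in these libraries. The pair is no test of a link between CG content and level. In the 250 bases before the other starts, CASP8 had 6, 5 and 5 CG dinucleotides and FAS 14, 11 and 19. Those of CFLAR had 17, 0, 0 and 22. CASP8 stood above FADD in level by the longest or the median coding transcript.

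Promoter entries were present for 5 of the 10 genes, with 12 start sites in all. A short SOX-type motif, ACAATG or ACAAAG on either strand, occurred in 1 of these 12 windows (250 bases before to 50 after the start), at the first listed start of CASP8. It occurred in 24.5% of all entries. Such a match describes letters and does not show a binding site. The absence of a match in the other windows says nothing about SOX2 binding elsewhere.

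Most other ligands of the family had few counts. Of 8 other ligand genes in the list drawn up for this comparison, 3 were tested and none was called by edgeR at an adjusted p under 0.05. At an unadjusted p under 0.05 there was 1, TNF. FASLG, the FAS ligand gene, had 1, 1 and 0 counts in control and 0, 0 and 2 counts in the knockdown replicates, also in order. TNFSF11, encoding RANKL, had 0 counts in all 6 libraries, which allows up to 3 counts or 0.0909 to 0.120 CPM. LTA had 1 to 4 counts, TNFSF15 0 to 8 and TNFSF13B 3 to 6 counts per library.

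TNF, the ligand of the TNF receptors, had 4, 9 and 3 counts in control and 10, 19 and 8 counts in knockdown libraries, and the groups overlapped. Its log2 fold change of 1.08 (SE 0.498) missed the threshold (edgeR, adjusted p = 0.121). Without control replicate 2 it was 1.78 and was called (adjusted p = 0.0408). Over its alternatives the adjusted p ranged from 0.0408 to 0.485. TNFSF12, encoding TWEAK, was at 1.40 ± 0.143 and 1.76 ± 0.211 CPM (SD, n = 3), and TNFSF9, the ligand of the costimulatory receptor 4-1BB, at 1.71 ± 0.134 and 1.66 ± 0.386 CPM. Neither was called.

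The TRAIL receptors that can signal death were represented by 1 gene. TNFRSF10B, encoding DR5, had 157, 151 and 148 CPM in control and 151, 148 and 143 CPM in the knockdown replicates, also in order. The ranges overlapped, with the highest value in control replicate 1. The log2 fold change was -0.048 (SE 0.0378; 95% interval -0.13 to 0.032; edgeR adjusted p = 0.391). As a percent change the interval runs from -8.46% to 2.25%. TNFRSF10A, encoding DR4, was without a count in the 3 control libraries and had 1, 0 and 5 counts in the knockdown replicates, also in order. A single library, SOX2 siRNA replicate 3, thus exceeded the floor of 3 counts, and the gene was not tested. Relaxing the filter to 1 count gave it a log2 fold change of 4.06 with an adjusted p of 0.124 (edgeR, Benjamini-Hochberg). That estimate rests on these few counts, most of them in a single library.

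Of the membrane decoys, only TNFRSF10D was called. TNFRSF10D, encoding DcR2, had 49.9, 56.1 and 54.0 CPM in control and 67.7, 65.7 and 63.1 CPM in the knockdown replicates, also in order. Each knockdown library was above each control library. The mean rose from 53.3 ± 3.16 to 65.5 ± 2.31 CPM (SD, n = 3), or 1.23-fold (log2 fold change 0.30, SE 0.0494; edgeR adjusted p = 1.86e-04). The 95% interval of the log2 fold change was 0.19 to 0.40. TNFRSF10C, encoding DcR1, had 9.45, 8.66 and 9.96 CPM in control and 8.61, 9.90 and 9.44 CPM in knockdown libraries. Its groups overlapped throughout, with a log2 fold change of -0.0081 (SE 0.0885; 95% interval -0.20 to 0.18; edgeR adjusted p = 0.961). The difference in response between the decoys was not tested.

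The secreted decoy had the largest fold change of the 8 tested genes. TNFRSF11B, encoding osteoprotegerin, had 59, 48 and 48 counts in control and 163, 187 and 221 counts in the knockdown replicates, also in order. In CPM these were 1.79, 1.92 and 1.66 against 5.40, 5.78 and 7.40, so the groups stood far apart, and SOX2 siRNA replicate 3 was the highest. The mean rose 3.46-fold, from 1.79 ± 0.128 to 6.19 ± 1.06 CPM (SD, n = 3; 95% interval 2.77-fold to 4.33-fold). The log2 fold change was 1.79 (SE 0.153; edgeR adjusted p = 8.85e-08), higher than that of 99.5% of tested genes. Stromal cells are among the known sources of osteoprotegerin. Of 4 genes listed as stromal markers, PDGFRB and THY1 rose. LUM was not called, with means of 1.08 CPM in control and 1.55 CPM in knockdown libraries, and DCN had 0 to 4 counts per library. The summed level of the 4 genes was 126 to 136 CPM in control and 215 to 231 CPM in knockdown libraries. Most of this rise came from PDGFRB alone, whose mean went from 28.6 to 106 CPM, while that of THY1 went from 101 to 115 CPM. The 3 endothelial markers fell, from a sum of 74.5 to 77.5 CPM to one of 49.9 to 51.9 CPM. PA1 is a cell line, and these markers do not show that stromal or endothelial cells were present. The part of such cells or states in the rise of TNFRSF11B was not tested.

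The genes whose values over the 6 libraries were most like those of TNFRSF11B were ZNF276, OPN3 and NMT2. They were the closest by Pearson correlation of log2 CPM among 12118 genes whose average log2 CPM reached 2, and 843 of these had a correlation over 0.95. With 2 groups that stand apart, such likeness mostly restates the difference between the groups. The log2 fold changes of these 3 genes were 0.35, 0.38 and 0.37, far smaller than that of TNFRSF11B.

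**Figure D2:**
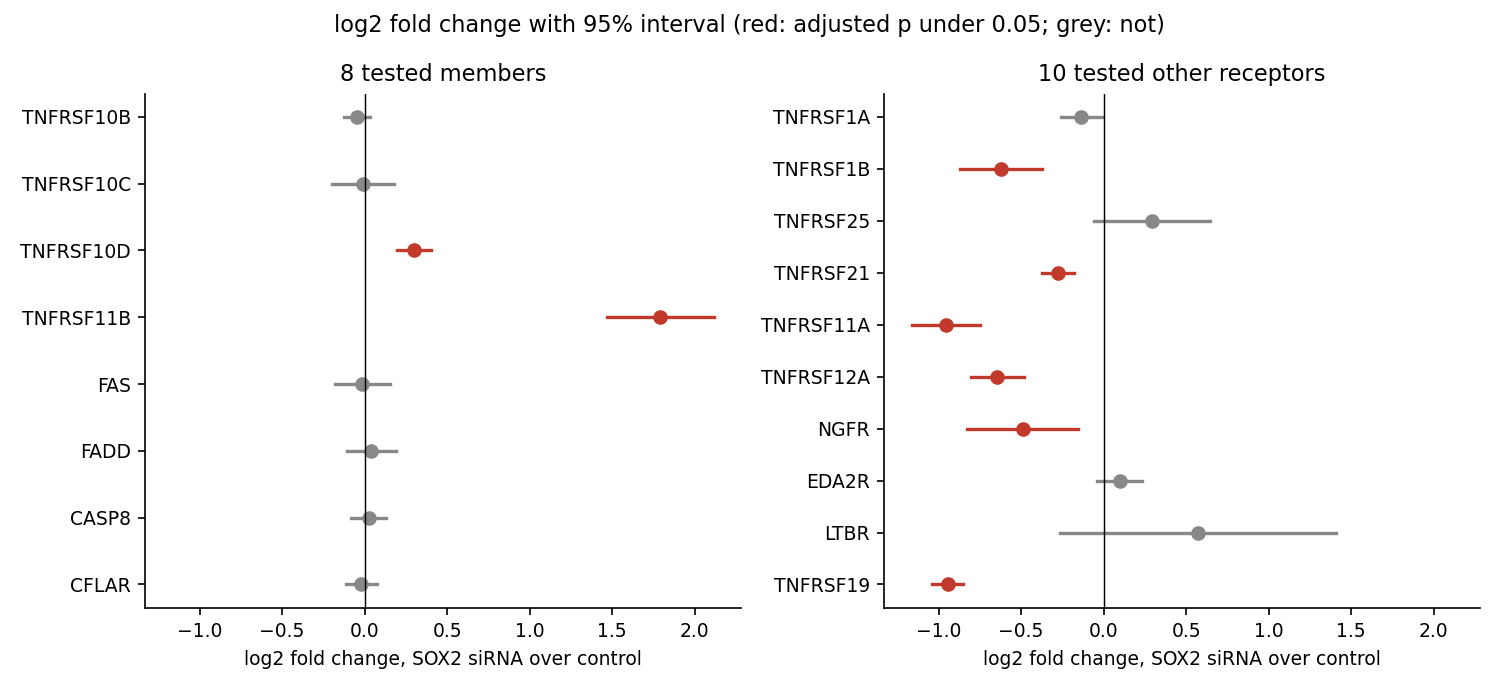
Log2 fold change of SOX2 siRNA over control (horizontal axis) with its 95% interval for the 8 tested death receptor genes (left) and 10 tested other receptors of the family (right). Red marks an adjusted p under 0.05 and grey the rest; TNFRSF10D and TNFRSF11B lie to the right of 0, and 6 other receptors to the left.

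The TRAIL receptor genes of the TNFRSF10 family lie side by side on chromosome 8, within 205 kb in the order TNFRSF10B, TNFRSF10C, TNFRSF10D and TNFRSF10A. TNFRSF11B lies elsewhere on the same chromosome. Despite this closeness the 4 neighbours differed widely in level. Per kilobase of exon, control libraries had 29.5 ± 0.810 CPM of TNFRSF10B, 5.01 ± 0.351 of TNFRSF10C, 15.1 ± 0.893 of TNFRSF10D and 0 of TNFRSF10A (SD, n = 3). TNFRSF10C and TNFRSF10D are separated by 18.2 kb, and of this pair only TNFRSF10D was called.

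Exon sharing limits some of these values. No 75-base stretch of any of the 10 genes' annotated transcripts occurred in transcripts of another of the 10, so reads of that length would not be split between the paralogs. For TNFRSF10C, 31.9% of such stretches also occur in AC107959.4 or AC107959.5, annotated on the same strand. These genes had 47 to 75 and 0 to 5 counts per library, against 217 to 320 for TNFRSF10C, so its level is uncertain to that extent. TNFRSF10B shares 1.30% of its exon length with RHOBTB2 on the opposite strand, which was called higher (log2 fold change 0.41, edgeR adjusted p = 3.01e-05). For CFLAR, 1.90% of 75-base stretches occur in transcripts of other genes in the same orientation and 9.48% in the reverse orientation. For TNFRSF10A, 9.36% occur in the reverse orientation. Whether counting used strand is not given in the sources used here.

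As shares of the summed TRAIL receptor level per kilobase, TNFRSF10B made up 58.7% ± 1.58 in control and 52.6% ± 0.638 in knockdown libraries (SD, n = 3). The decoys TNFRSF10C, TNFRSF10D and TNFRSF11B together made up 39.5%, 41.9% and 42.4% in control and 46.7%, 47.4% and 47.9% in the knockdown replicates, also in order. The decoy share was therefore higher in each knockdown library than in each control library. Most of it was TNFRSF10D, at 30.0% ± 1.70 and 34.1% ± 0.685. TNFRSF11B grew from 1.26% ± 0.0828 to 4.05% ± 0.766. These shares are of transcripts, combine the same values as the gene results and were given no test. With the median coding transcript length in place of exon length, the decoy share was 29.1% in control and 34.6% in knockdown libraries.

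**Figure D3:**
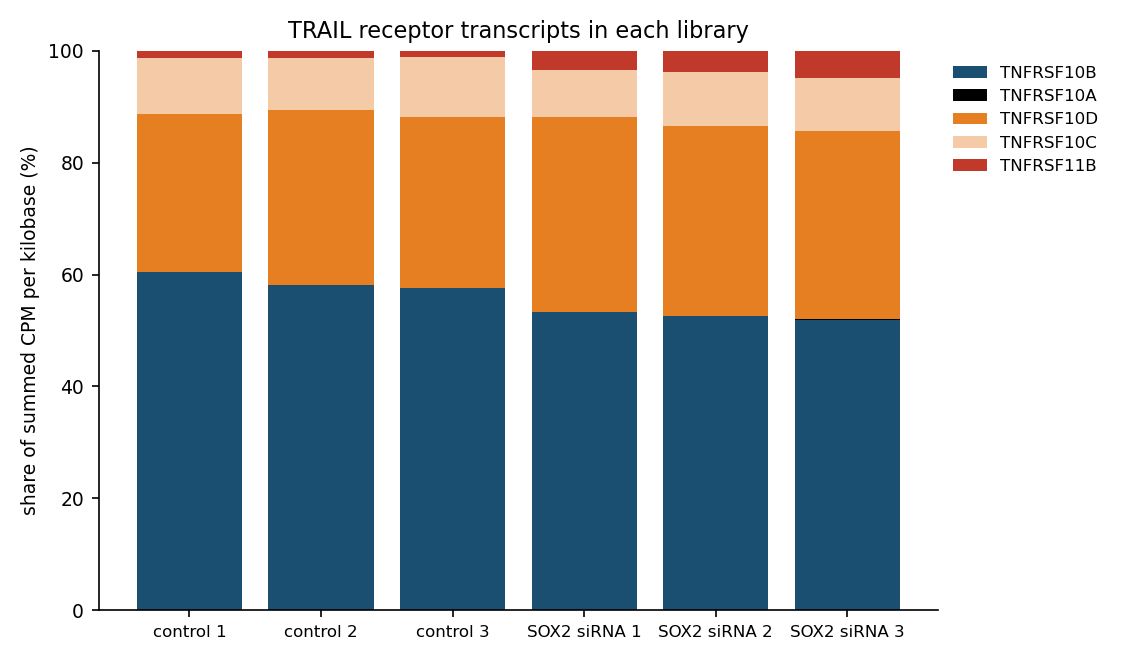
Share of each TRAIL receptor gene in the summed CPM per kilobase of exon (vertical axis, percent) in each of the 6 libraries. TNFRSF10B takes 57.6% to 60.5% of the bar in control and 52.0% to 53.2% in knockdown libraries, and TNFRSF10A is too small to see.

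FAS, the receptor for FAS ligand, did not pass the threshold. It had 12.4, 11.9 and 11.7 CPM in control and 10.8, 12.6 and 12.1 CPM in the knockdown replicates, also in order, and the SOX2 siRNA values lay on both sides of the control range. The log2 fold change was -0.014 (SE 0.0785; 95% interval -0.18 to 0.15; edgeR adjusted p = 0.923). As a percent change the interval runs from -11.7% to 11.1%. FAS lies at chr10:88990582-89015785 on the plus strand of GRCh38. It shares 8.94% of its exon length with ACTA2 on the opposite strand, a gene with 601 to 842 counts per library against 297 to 409 for FAS, so its level is uncertain if counting ignored strand.

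None of the 3 signalling genes below the receptors was called. FADD, the adaptor, had 16.4, 15.7 and 16.8 CPM in control and 16.6, 15.5 and 18.2 CPM in knockdown libraries, with a log2 fold change of 0.042 (SE 0.0715; 95% interval -0.11 to 0.19). An antisense gene covers 54.9% of the FADD exon length, and it had 1 or 2 counts per library. If counting ignored strand, reads in the shared part could not be assigned, so the level of FADD is uncertain. CASP8, the initiator caspase, had 43.7, 43.7 and 45.2 CPM in control and 42.7, 44.7 and 47.6 CPM in knockdown libraries, with a log2 fold change of 0.025 (SE 0.0496; 95% interval -0.079 to 0.13). CFLAR had 53.4, 53.1 and 53.3 CPM in control and 54.1, 52.7 and 50.7 CPM in knockdown libraries, with a log2 fold change of -0.020 (SE 0.0437; 95% interval -0.11 to 0.073). The groups overlapped for all 3 genes, and the knockdown libraries spread more than the control libraries. Their adjusted p-values were 0.725, 0.761 and 0.789 (edgeR, Benjamini-Hochberg). As percent changes the intervals run from -7.30% to 14.3% for FADD, from -5.36% to 9.45% for CASP8 and from -7.49% to 5.16% for CFLAR. Changes inside these intervals remain compatible with the data.

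CFLAR and CASP8 are near neighbours on chromosome 2, at chr2:201116104-201176687 and chr2:201233443-201287711 on the plus strand, 56.8 kb apart. For each CASP8 read there were 1.22, 1.21 and 1.18 CFLAR reads in control and 1.27, 1.18 and 1.06 in the knockdown replicates, also in order. The knockdown libraries lay on both sides of the control range. This is a ratio of reads and not of transcript levels, since the genes differ in length. Their isoforms, among them the long and short forms of c-FLIP, cannot be told apart in counts per gene.

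Placed in order of level per kilobase of exon in control libraries, the 10 genes ran TNFRSF10B, TNFRSF10D, FADD, CASP8, TNFRSF10C, FAS, CFLAR, TNFRSF11B, TNFSF10 and TNFRSF10A. TNFRSF10B stood above 92.7% of tested genes, TNFRSF10D above 82.6% and FADD above 70.4%. CASP8, TNFRSF10C, FAS and CFLAR were in the middle, above 61.1%, 56.1%, 43.3% and 39.8%, TNFRSF11B was above 19.4% and TNFSF10 above 3.47%. Control libraries of neighbours in this order did not overlap. In knockdown libraries the values of CFLAR (mean 2.33 ± 0.0762 CPM per kilobase; SD, n = 3) and TNFRSF11B (2.19 ± 0.375) overlapped, as TNFRSF11B rose to the CFLAR level, and so the order of that pair could not be set. The last pair, TNFSF10 and TNFRSF10A, also overlapped there. The place of CFLAR depends on the length used: its annotated exons span 22529 bases, its longest transcript has 14672 and its median coding transcript 1646. By the last length CFLAR came second, at 32.4 CPM per kilobase, and 5 of the 10 genes kept their place. CASP8 moved as well, from place 4 at 6.11 by exon length to place 2 at 15.1 by the longest transcript. By the median coding transcript CASP8 was at place 3 with 23.2. TNFRSF10D fell to place 3 or 4 and FADD to place 4 or 5 by these lengths.

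**Figure D4:**
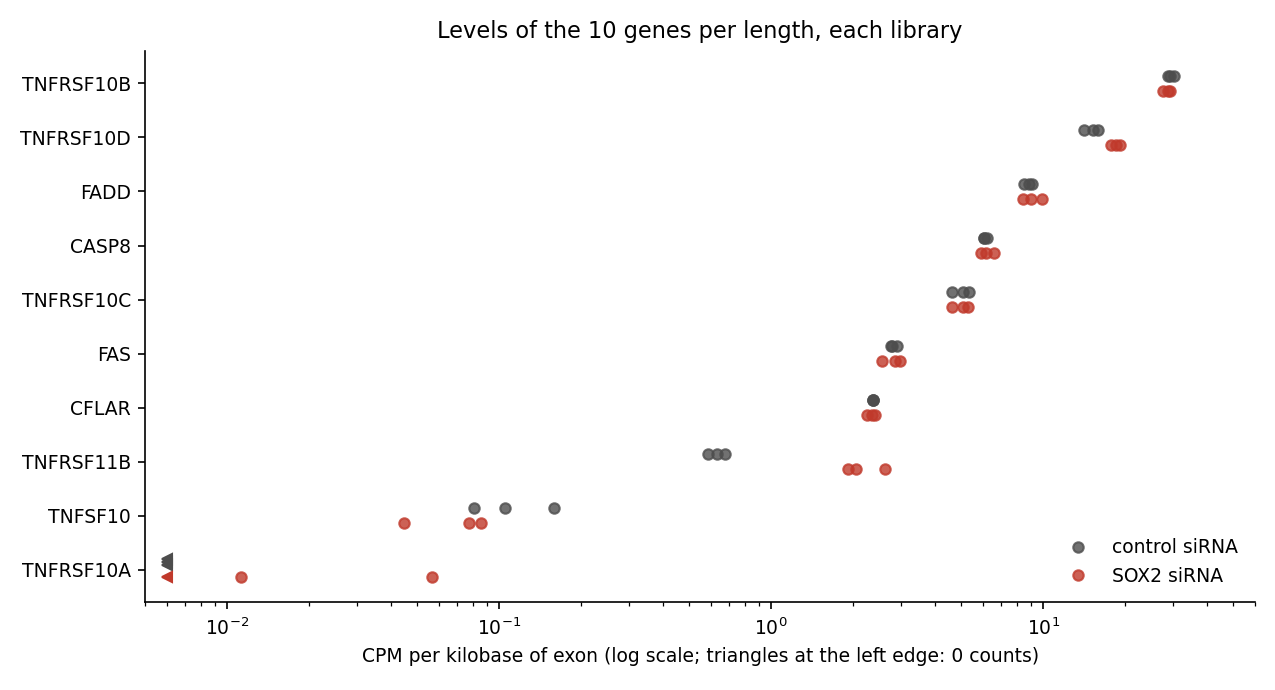
CPM per kilobase of exon (horizontal log axis) of the 10 genes in each control (grey) and SOX2 siRNA (red) library, ordered by the control mean; triangles mark libraries with 0 counts. The control means span from 29.5 for TNFRSF10B to 0 for TNFRSF10A. Among the 8 tested genes, TNFRSF11B is the one whose points move farthest between groups.

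Receptors of the same superfamily outside the TRAIL and FAS group were read from a list of 12 genes. Of 10 tested, 6 fell; none was called higher by edgeR, and at an unadjusted p under 0.05 the number higher was also 0. Of all tested genes 13.4% fell. Their median log2 fold change was -0.38, against -0.00085 over all tested genes. TNFRSF11A, encoding RANK, the signalling receptor for the RANKL that osteoprotegerin captures, fell from 12.4 ± 0.280 to 6.41 ± 0.949 CPM (n = 3, SD; log2 fold change -0.96, SE 0.0982; edgeR adjusted p = 8.93e-07). Osteoprotegerin and RANK transcripts thus moved in opposite directions, while RANKL itself had no counts. TNFRSF19, encoding TROY, fell from 97.96 ± 4.44 to 50.8 ± 1.53 CPM (log2 fold change -0.95; edgeR adjusted p = 3.88e-11).

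The other called receptors fell less. TNFRSF12A, the TWEAK receptor, had a log2 fold change of -0.64 (edgeR adjusted p = 4.65e-06), and TNFRSF1B, encoding TNF receptor type 2, one of -0.62 (adjusted p = 6.64e-04). TNFRSF21, encoding the death receptor DR6, fell from 141 ± 9.03 to 116 ± 3.57 CPM (n = 3, SD; log2 fold change -0.27; edgeR adjusted p = 2.06e-04). NGFR, the p75 neurotrophin receptor, had a log2 fold change of -0.49 (edgeR adjusted p = 0.0438) and was not stable: it missed the threshold with total-count scaling (-0.49, adjusted p = 0.0541), and without control replicate 1, control replicate 3 or SOX2 siRNA replicate 2 it was -0.46, -0.43 or -0.47 with adjusted p of 0.134, 0.122 and 0.142.

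The remaining receptors of the list were not called or not tested. TNFRSF1A, TNF receptor type 1, was at 36.5 ± 3.09 and 33.3 ± 0.904 CPM (n = 3, SD; by edgeR adjusted p = 0.104), and it was called as lower, at a log2 fold change of -0.19, only when control replicate 2 was left out (adjusted p = 0.0239, the lowest of its 15 alternatives; the highest was 0.416). TNFRSF25, encoding DR3, was at 2.44 ± 0.207 and 2.98 ± 0.534 CPM and was not called. EDA2R, a receptor for ectodysplasin, had a log2 fold change of 0.097 and LTBR, the lymphotoxin beta receptor, one of 0.57; neither was called. TNFRSF6B, the decoy receptor for FAS ligand, had 0 counts in all 6 libraries, and EDAR had 0 to 2.

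**Figure D5:**
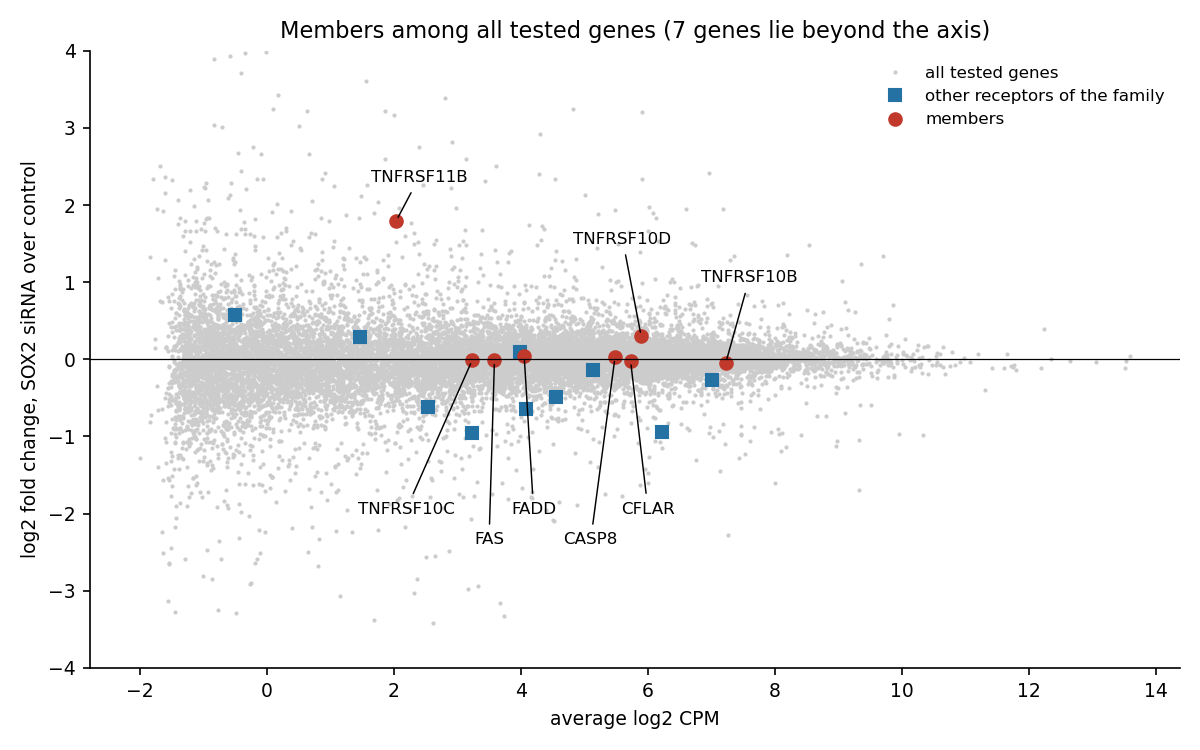
Log2 fold change of SOX2 siRNA over control (vertical axis) against average log2 CPM (horizontal axis) for all 17592 tested genes (grey), the 8 tested death receptor genes (red circles, named) and 10 tested other receptors (blue squares). TNFRSF11B stands at 1.79, TNFRSF10D at 0.30, and the other named genes lie between -0.048 and 0.042.

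Adaptors, ubiquitin enzymes and necroptosis genes around the receptor complex formed a list of 20. Of 19 tested, 1 rose and 2 fell (15.8% called, against 28.2% of all tested genes), with a median log2 fold change of 0.048. PEA15, encoding a death effector domain protein that binds FADD and caspase-8, rose from 148 ± 4.30 to 170.0 ± 4.70 CPM (n = 3, SD; log2 fold change 0.20; edgeR adjusted p = 5.61e-04). CYLD, a deubiquitinase that acts on receptor complexes, fell from 40.5 ± 0.918 to 35.8 ± 0.473 CPM (log2 fold change -0.18; edgeR adjusted p = 0.00847). ITCH, a ubiquitin ligase with c-FLIP among its reported substrates, went from 92.9, 99.3 and 92.8 CPM in control to 81.3, 83.0 and 83.0 CPM (log2 fold change -0.20; edgeR adjusted p = 0.00101). RIPK3, the kinase of necroptosis, had 0 counts in 5 libraries and 1 in SOX2 siRNA replicate 3, and was not tested.

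Genes downstream of caspase-8 moved in both directions. Of 16 tested, 3 rose and 3 fell (37.5% called, against 28.2% of all tested genes), with a median log2 fold change of 0.070. BID, whose product is cut by caspase-8 and carries the signal to mitochondria, rose from 15.7 ± 0.802 to 22.2 ± 2.15 CPM (n = 3, SD; log2 fold change 0.50; edgeR adjusted p = 6.46e-05). BAX, a pore-forming protein of the same route, rose from 60.5 ± 4.58 to 72.9 ± 1.13 CPM (log2 fold change 0.27). DFFA, the inhibitor of the apoptotic nuclease, rose by 0.12 on the log2 scale; this call was lost without control replicate 3, SOX2 siRNA replicate 2 or SOX2 siRNA replicate 3 (0.12, 0.12 and 0.11; edgeR adjusted p = 0.0683, 0.0836 and 0.0580). PARP1, a substrate of executioner caspases, fell from 560 ± 14.4 to 437 ± 9.55 CPM (log2 fold change -0.36; edgeR adjusted p = 3.76e-07), and CYCS, cytochrome c, from 219 ± 4.65 to 192 ± 11.6 CPM (log2 fold change -0.19). ROCK1, a kinase cut by caspases and named here after its values were seen, was the third lower gene (log2 fold change -0.11; edgeR adjusted p = 0.0444), and it missed the threshold in 7 of 15 alternatives.

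Transcription factors reported to act on death receptor genes also went both ways, with 3 higher and 3 lower of 13 tested (46.2% called, against 28.2% of all tested genes) and a median log2 fold change of 0.064. JUN, a subunit of the AP-1 factor, had a log2 fold change of -0.37 (edgeR adjusted p = 0.00525). RELA, a subunit of NF-kappaB, rose by 0.29 on the log2 scale (edgeR adjusted p = 0.00198). MYC rose from 5.05 ± 0.919 to 7.76 ± 1.36 CPM (log2 fold change 0.61; edgeR adjusted p = 0.0119), but without control replicate 2 or SOX2 siRNA replicate 1 it was 0.64 or 0.57 and missed the threshold (adjusted p = 0.0518 and 0.0501). ATF4, the stress factor, had a log2 fold change of 0.12 (edgeR adjusted p = 0.0228); the call was lost without control replicate 2, control replicate 3, SOX2 siRNA replicate 2 or SOX2 siRNA replicate 3 (0.11, 0.10, 0.13 and 0.10; adjusted p = 0.0783, 0.119, 0.0543 and 0.0887). TP73, a p53 relative named here after its values were seen, was also called lower (log2 fold change -1.08; edgeR adjusted p = 0.0368), with 16 to 22 counts in control and 5 to 13 in knockdown libraries, and it missed the threshold in 8 of 14 alternatives. Without control replicate 2 the number of called genes in this list was 3 in place of 6.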

How the data were processed

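The authors deposited raw read counts per gene symbol for 6 mRNA libraries made with a KAPA kit, per the labels. The submitters' processing notes name bcl2fastq 2.20.0, STAR 2.7.3a, Salmon 0.14.1 and DESeq2 1.28.1 and the build GRCh38.p13 without giving their roles; annotation and strand setting are not given in the sources used here. Groups came from the titles.

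Genes were kept by filterByExpr (minimum count 10), scaled by TMM and tested with edgeR 4.0.16 (R 4.3.3; glmQLFit with robust=TRUE, glmQLFTest, design on group), with Benjamini-Hochberg adjustment over 17592 genes and a threshold of 0.05. SE is the log2 fold change over the root of F, and 95% intervals use the fit's degrees of freedom. limma 3.58.1 (voom) and DESeq2 1.42.0 served as alternatives, beside other scalings and filters, robust=FALSE, a replicate block and each library left out. The fit was tested on simulated data. Lengths are unions of GENCODE 29 exons (96.2% of tested genes matched by symbol), and other lengths were alternatives. Figures used matplotlib 3.10.9.

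The 10 genes and the 5 further lists were chosen with earlier results of these data known. Genes named are the 10, SOX2, all other ligands and receptors listed, up to 5 called genes with the smallest p in each further list, and the 3 genes most correlated with the gene of smallest p. Cell type markers, genes that overlap the 10 in the annotation and RIPK3 were named as checks, some after their values were seen, as were ROCK1 and TP73. Promoters of 5 of the genes are not used here. A result for 1 gene that this rule names is not reported here. No library was left out.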

Additional observations from a re-analysis of the deposited data

How the results depend on the processing

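TNFRSF10D and TNFRSF11B were called as higher in each of 15 alternatives, and the other 6 tested genes in none of them. The log2 fold change of TNFRSF10D ranged from 0.25 to 0.34 (edgeR, DESeq2 or limma adjusted p 4.47e-09 to 0.00185) and that of TNFRSF11B from 1.64 to 1.88 (adjusted p 2.95e-29 to 2.81e-05). SOX2 ranged from -2.32 to -2.25. Genes called ranged from 3760 to 5212, and from 3760 to 4863 when a library was left out. Of 913 values for 61 single genes of the further lists, 28 lost a call, 17 gained one and none reversed. The call count of other ligands ranged from 0 to 1 and that of transcriptional regulators from 3 to 6 when a library was left out. With the median coding transcript length, an alternative chosen after seeing the data, 5 genes kept their place in the order of levels; the annotated exon span of CFLAR is the length that moved most. The alternatives for the further lists and for shares were also added after seeing the data.

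Both groups carry replicate numbers 1 to 3, which were not taken as pairs. Deviations of same-numbered libraries from their group means had correlations across genes of 0.0868, -0.0377 and -0.0311. For libraries with different numbers these ran from -0.120 to 0.155. With 3 libraries per group such values cannot settle whether the numbers stand for pairs. A fit that took the replicate block into account called 5177 genes (2720 up and 2457 down), with 2 of the 8 tested death receptor genes among them. Depth limits TNFSF10, with 5 to 16 counts per library, and TNFRSF10A, with 0 to 5. TNFSF10 passed the filter when control replicate 2 or any 1 knockdown library was left out, with log2 fold changes of -0.93 to -0.50 and edgeR adjusted p of 0.178 to 0.515.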
